A study of Sus scrofa with 35 samples.

Results

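Ribosome biogenesis genes were examined in whole blood of heat-exposed pigs, starting from NOP14, a nucleolar protein needed to build the small ribosomal subunit. The 60 member genes cover 5 assembly steps around NOP14. NOP14 itself was picked because its probe was far higher under heat with the same sign in every breed, so its heat difference is given here as a description without a test. A probe belonged to a member when the gene name in the array files, in capitals, equalled the member's symbol. Of the 60 members, 48 had a named probe (96 probes) and 45 had at least 1 probe among the 39072 probes of the normalised table (86 probes). No named probe was found for BYSL, GAR1, IMP4, NHP2, NOL10, POLR1C, RRP1, RRP12, RRP1B, RRP8, RRS1 and UTP14A, and the probes of EMG1, POLR1B and WDR75 were on the array but absent from the table.

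The animals were 35 castrated male growing pigs of 3 genetic types, the Creole (CR) breed, the Large White (LW) breed and their F1 cross. Each type was sampled under thermoneutral conditions (TN, 24 °C) or under heat stress (HS), which gave 5 CR TN pigs and 6 pigs in each of the other 5 groups. HS was 30 °C by the sample labels and 32 °C, held for 5 d, by the growth protocol. By the paper, some HS pigs were slaughtered before the full 5 d, and the labels do not say which. TN pigs were slaughtered before the temperature was raised and HS pigs after it, so climate and time of slaughter cannot be told apart. Expression was measured on single-colour arrays with 60-base probes, and values are log2 of quantile-normalised intensity. All 35 arrays lay on 5 slides, and each slide held pigs of several groups. The 75th percentile of the processed signal was 112 to 186 in F1 TN pigs and 145 to 329 in the other groups.

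Ribosomes are assembled in the nucleolus, where RNA polymerase I transcribes a long ribosomal RNA precursor. Small nucleolar ribonucleoproteins (snoRNPs) modify this precursor, the small subunit processome folds and cleaves its first part, and other factors mature the large subunit. NOP14 works in the processome and binds NOC4L. In blood, mature red cells have lost nuclei and nucleoli, so these transcripts come mainly from leukocytes and from red cells that are not yet mature.

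The probe sequences that matter for the results are shown first, 5′ to 3′ as the array files list them. NOP14 was read by 1 probe, A_72_P283074, and no other of the 60304 probes compared shared 20 bases with it. The array describes this probe only as a pig mRNA clone from trachea. Its link to NOP14 therefore rests on the array's gene name and was not checked. NOC2L and DKC1 were the next members by heat difference, and WDR3, NCL and IMP3 had probes that differed from one another. Sequences are whole where another probe of the same transcript record started at least 400 bases further on, and otherwise the first 30 of 60 bases are given.
NOP14 A_72_P283074: cgagcacgattgccttcatgtatggaattt
NOC2L O13482: agtggcggaagctgagggaccgagagatcc
DKC1 O12853: tttggaaaagctattgacatctcataagcg
WDR3 A_72_P198152, record position 526: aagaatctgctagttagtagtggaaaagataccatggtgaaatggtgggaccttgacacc
WDR3 A_72_P016366, record position 1816: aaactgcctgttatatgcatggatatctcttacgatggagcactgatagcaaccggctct
WDR3 A_72_P245437, record position 3119: gcaggaagccaggaaacctttaaatgaagt
WDR3 A_72_P689619, record position 3313: aagggactggaaaagttatctggaacagct
NCL A_72_P310249: gcagaatgttttatcatgatttttgcttca
NCL O14359: attcatgtaataaaagggaaattgagggca
IMP3 A_72_P477740, record position 541: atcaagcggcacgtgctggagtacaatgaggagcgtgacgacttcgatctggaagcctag
IMP3 A_72_P132731, record position 1013: gatgttggagagtttggtctcaagttttca
IMP3 O9292: agcttttgctcgtggaacttaagcttccgc
These probes carry no chromosome position in the array files, so none is placed in a genome here. The strand of each probe relative to its transcript was not checked.

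NOP14 was higher in HS than in TN pigs of all 3 genetic types. The 5 CR TN pigs had log2 intensities of 9.21, 8.90, 10.39, 10.20 and 10.32. The 6 CR HS pigs ran from 9.94 to 11.52 with a median of 10.74. The F1 TN pigs ran from 10.04 to 10.99 (median 10.24) and the F1 HS pigs from 11.15 to 11.57 (median 11.28), so the F1 climates did not overlap. LW TN pigs ran from 9.05 to 11.34 (median 10.41) and LW HS pigs from 10.53 to 11.40 (median 10.86), which overlapped. Each of the 18 HS pigs exceeded the TN average of its own genetic type, which 0.394% of all probes in the table also showed.

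The HS minus TN difference of NOP14 was 0.84 ± 0.17 (SE, n = 35 pigs) on the log2 scale, averaged over genetic types, and 18 probes of the table had a larger one. It was 1.02 in CR, 1.01 in F1 and 0.51 in LW pigs. Within single slides the difference was 1.05, 0.91, 0.95, 0.71 and 0.44, so it was positive on every slide. Slide 5, with 0.44, held HS pigs of CR and F1 and TN pigs of LW only, so no genetic type had both climates there. The F1 TN pig with 10.99 stood apart from the other 5 F1 TN pigs, which lay between 10.04 and 10.32.

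**Figure D1:**
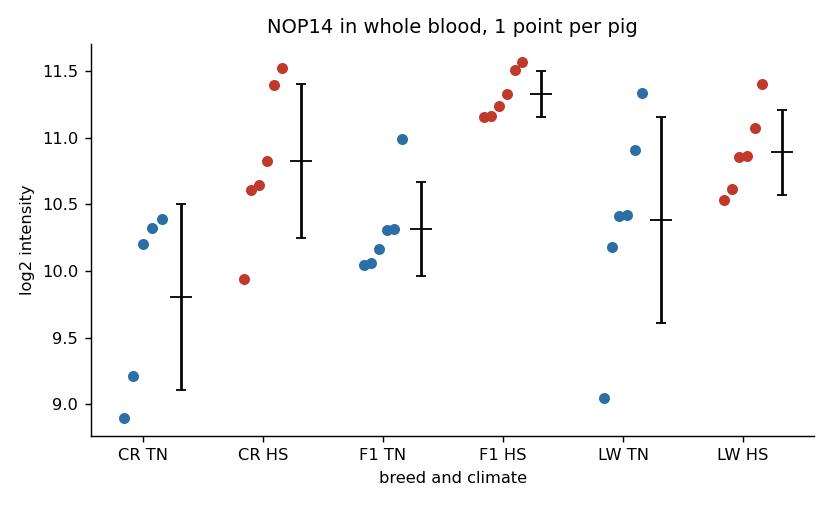
NOP14 log2 intensity (vertical axis) in each of the 35 pigs by genetic type and climate (horizontal axis). Points are pigs, blue for TN and red for HS, and the bar beside them is the mean ± SD. Each HS pig lies above the TN average of its genetic type, and the F1 climates do not overlap.

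The members were shifted mostly towards higher values under HS. NOP14 had the largest difference, but it was chosen for being far higher, so this rank is not a finding. On 1 representative probe per gene, the brightest on average, 37 of 45 members had a positive HS minus TN difference, as did 59.8% of all probes. The median difference over the 45 members was 0.18 on the log2 scale, against 0.06 over all probes. The second largest difference after NOP14 was 0.56, in NOC2L. At an adjusted p under 0.05 in limma, 38 of the 86 member probes were up-regulated, where 20.1% of all probes were, and 1 was down-regulated, where 14.7% were. Because NOP14 was chosen from this contrast, nothing is read from these counts. The fit also treats the pigs as independent, without pen, slaughter day or parents. The 38 probes belonged to 27 genes. Beside NOP14, 4 members were above the TN mean of the genetic type in 17 of 18 HS pigs, namely DKC1, NOC4L, NOC2L and DDX21, and 3.27% of all probes reached 17 or more. In bulk blood, fewer cells of a type and less RNA per cell cannot be told apart.

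**Figure D2:**
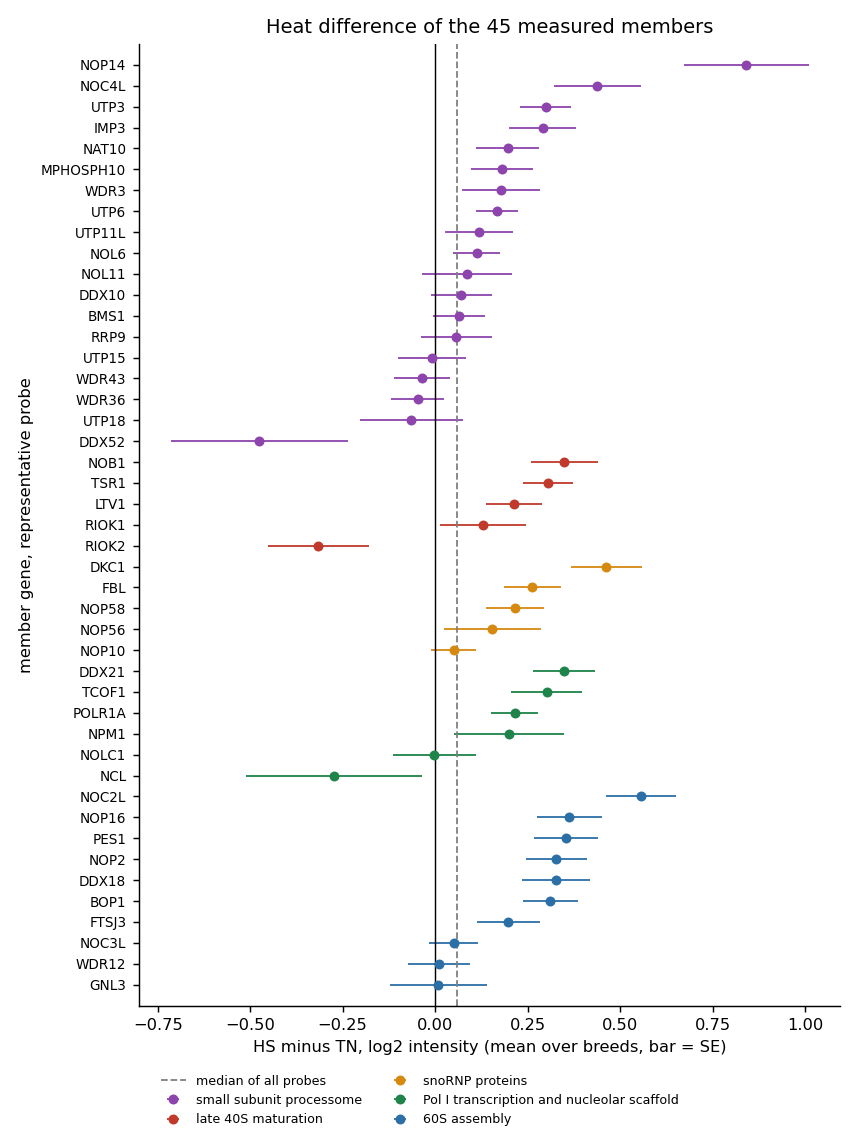
HS minus TN difference in log2 intensity (horizontal axis, mean over genetic types, bar = SE) of the representative probe of each of the 45 measured members (vertical axis), coloured by assembly step. The dashed line is the median of all probes, 0.06, and 37 members lie above 0, with NOP14 at 0.84 and DDX52 at -0.48 as the extremes.

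Small subunit processome members were the largest group and had the widest range of heat differences, with the chosen gene NOP14 at its top. A range widens with the number of members, so no greater spread is read from it. Of 24 members, 19 were measured on 31 probes, and their representative differences ran from -0.48 to 0.84 with a median of 0.11. After NOP14 came its binding partner NOC4L. NOC4L ran from 7.94 to 8.66 in CR TN and from 7.69 to 9.15 in CR HS pigs, from 7.54 to 8.74 in F1 TN and 8.59 to 9.28 in F1 HS pigs, and from 7.94 to 8.95 in LW TN and 8.57 to 9.16 in LW HS pigs. The climates overlapped in all 3 genetic types, and the difference was 0.44 ± 0.12. The second NOC4L probe had 0.21 ± 0.08. UTP3, another processome protein, was higher by 0.30 ± 0.07 and its other probes by 0.23 and 0.26.

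IMP3, a protein of the U3 snoRNP subcomplex that contains MPHOSPH10, had 2 probes that were higher in HS and another named probe that was lower. Probes A_72_P132731 and A_72_P477740 were higher in HS by 0.29 ± 0.09 and 0.34 ± 0.09. Probe O9292 had a difference of -0.23 ± 0.08. It may read the strand opposite to IMP3, which was not checked, so its value may not be a level of IMP3. O9292 is the 1 member probe down-regulated in HS minus TN, and 1 of the 2 within F1. In F1 pigs A_72_P132731 moved from a TN median of 8.75 to an HS median of 9.28, while O9292 moved from 5.98 to 5.46 without overlap. In LW pigs the differences were 0.06 and 0.00 on these probes.

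At the lower end, the helicase DDX52 had a difference of -0.48 ± 0.24. DDX52 ran from 9.54 to 11.26 in F1 TN and from 8.62 to 10.13 in F1 HS pigs, and all 6 F1 HS pigs were under the F1 TN mean. Its differences were -0.19 in CR, -1.11 in F1 and -0.10 in LW pigs. UTP18, a WD-repeat protein of the processome, had -0.06 ± 0.14 over all pigs, with -0.32 in CR, 0.54 in F1 and -0.44 in LW pigs. No difference between genetic types in its heat response passed the threshold. RRP9, a U3 snoRNP protein, had 0.06 ± 0.10.

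Late maturation of the small subunit was covered by 5 of 7 members on 9 probes, with a median of 0.21. NOB1, the nuclease that makes the last cut of the small subunit RNA, had 0.35 ± 0.09. TSR1 and LTV1, assembly factors of late particles, had 0.31 ± 0.07 and 0.21 ± 0.08. The kinases differed by probe. RIOK1 had 0.13 ± 0.12 on its brighter probe and 0.37 ± 0.08 on the other, and RIOK2 had -0.32 ± 0.14 and 0.05 ± 0.09.

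The snoRNP proteins were measured for 5 of 7 members on 12 probes, and all 5 representative differences were positive, from 0.05 to 0.46 with a median of 0.21. DKC1, the enzyme that makes pseudouridine in ribosomal RNA, ran from 8.96 to 9.41 in CR TN and 8.58 to 9.87 in CR HS pigs, from 8.52 to 9.38 in F1 TN and 9.39 to 9.99 in F1 HS pigs, and from 8.98 to 9.30 in LW TN and 9.14 to 9.82 in LW HS pigs. The F1 climates did not overlap, and the DKC1 difference was 0.46 ± 0.10. FBL, the methyltransferase of the other snoRNP class, had 0.26 ± 0.08. NOP58 and NOP56, its core partners, had 0.21 ± 0.08 and 0.15 ± 0.13 on their representative probes, and the second NOP56 probe had 0.40 ± 0.09. NOP10, a small partner of DKC1, had 0.05 ± 0.06.

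Genes of RNA polymerase I transcription and the nucleolar scaffold were measured for 6 of 8 members on 11 probes, with a median of 0.21. The helicase DDX21 had 0.35 ± 0.08, and its identical pair of other probes had 0.41 and 0.43. TCOF1, which helps recruit polymerase I, had 0.30 ± 0.10, and POLR1A, the largest polymerase I subunit, had 0.21 ± 0.06. NOLC1, a scaffold protein of snoRNPs, had 0.00 ± 0.11. NCL, nucleolin, had -0.27 ± 0.24 on the brighter probe and 0.30 ± 0.08 on probe O14359.

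The large subunit group had the highest median, 0.32, over 10 of 14 members on 23 probes, and none of its 10 representative differences was negative. NOC2L, an assembly factor of large subunit precursors, ran from 7.21 to 7.74 in CR TN and 7.35 to 8.40 in CR HS pigs, from 6.87 to 7.61 in F1 TN and 7.80 to 8.06 in F1 HS pigs, and from 7.08 to 7.79 in LW TN and 7.47 to 8.10 in LW HS pigs. The F1 pigs of both climates did not overlap, and the NOC2L difference was 0.56 ± 0.10, with 0.48 in CR, 0.72 in F1 and 0.46 in LW pigs. NOP16 had 0.36 ± 0.09 and PES1, of the complex that processes the large subunit RNA, 0.35 ± 0.09. WDR12, a partner of PES1, had 0.01 ± 0.08, and GNL3, nucleostemin, 0.01 ± 0.13.

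Heat differences of the members had the highest median in F1 pigs. The median over the 45 representative probes was 0.36 in F1, 0.11 in CR and 0.14 in LW pigs, against 0.13, 0.03 and 0.01 over all probes. Without CR HS replicate 1, whose mean over the members was low, the CR median was 0.21. The largest of the 3 differences fell in F1 for 31 members, in LW for 8 and in CR for 6. The sign was positive in every genetic type for 21 members and negative in every genetic type for 3. Shares over all probes are not given for these counts, so no trait of the members is read from them. Within F1, 35 member probes were up-regulated, where 20.8% of all probes were, and 2 were down-regulated, where 17.9% were. Within CR and within LW no member probe passed, where 0% of all probes did. HS values lay wholly above TN values for 10 representative probes in F1 pigs, where 3.59% of all probes did so, for 1 in LW (0.683%) and for 0 in CR (0.417%). The mean of the erythroid markers also differed most in F1 pigs, from 10.86 in TN to 9.83 in HS, against 10.42 and 9.96 in CR and 10.62 and 10.28 in LW pigs. With that mean as a covariate, up-regulated member probes within F1 numbered 3 instead of 35. Over all probes, the same covariate left 3 calls in HS minus TN averaged over genetic types. The share of all probes within F1 is not given, so the drop is not read as a result about the members. The array signal of F1 TN pigs was the lowest of the groups, and its part in the F1 difference was not tested.

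The difference between genetic types in the heat response was tested as an interaction in limma. No member probe passed at an adjusted p of 0.05, where 0% of all probes did; 9 had an unadjusted p under 0.05, and the smallest adjusted p was 0.278. The pairwise tests gave the same count of 0, with 13 unadjusted in F1 minus LW (smallest adjusted p in limma 0.122), 5 in F1 minus CR (0.398) and 1 in LW minus CR. UTP18 had the largest positive F1 minus LW contrast, 0.99 ± 0.29 with an adjusted p of 0.122 in limma. For NOP14 the F1 minus LW contrast was 0.51 ± 0.41 and the F1 minus CR contrast -0.01 ± 0.42, and its choice for 1 sign in all genetic types bears on this test.

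**Figure D3:**
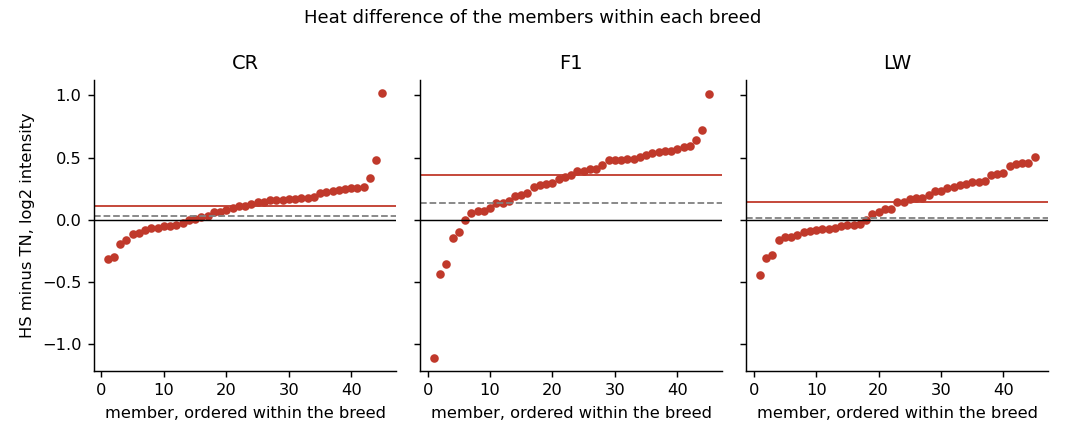
HS minus TN difference in log2 intensity (vertical axis) of the 45 members within CR, F1 and LW pigs, each point a member in order of size (horizontal axis). The red line is the median of the members (0.11, 0.36 and 0.14) and the dashed line the median of all probes (0.03, 0.13 and 0.01).

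NOP14 was chosen by its heat difference and not by breed differences, so the latter were tested. The members were still chosen with earlier results of these data known. Between CR and LW pigs, WDR3 and NCL were the members that passed, on 3 of 86 probes (3 of 81 distinct sequences), where 1.08% of all probes passed; 9 had an unadjusted p under 0.05. WDR3, a WD-repeat protein of the processome, was higher in CR pigs on the probe nearest the end of its record, and NCL was lower in CR pigs on 1 of its probes. The third probe, A_72_P245437 of WDR3, was close to background in LW pigs, and the count was 2 when only probes well above background on every array of a group were kept.

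WDR3 probe A_72_P689619 ran from 7.02 to 8.05 in the 11 CR pigs (median 7.53), from 6.71 to 7.67 in the 12 F1 pigs (median 7.05) and from 6.22 to 7.28 in the 12 LW pigs (median 6.70). CR pigs were highest and LW pigs lowest, with some overlap, and all 11 CR pigs were above the LW median. The CR minus LW difference was 0.84 ± 0.13 with an adjusted p of 0.000168 in limma. It was 0.80 in TN and 0.88 in HS pigs, and positive on all 5 slides, although slide 5 set CR HS against LW TN pigs only. F1 pigs were 0.04 ± 0.11 below the mid-parent value.

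WDR3 probe A_72_P245437 was well above background in 8 of 11 CR pigs, 6 of 12 F1 pigs and 1 of 12 LW pigs. Its fitted CR minus LW value, 0.40, therefore sets CR pigs against LW pigs mostly at background, and its size is not a measured difference. With signals scaled to the 75th percentile the value became 1.46, and with normexp background correction 0.23. The other 4 WDR3 probes had CR minus LW differences of 0.02 at position 526, -0.01 and -0.07 on the identical pair at position 1816, and -0.06 on O13980, which has no position. Averaged over the 6 probes, the WDR3 difference was 0.19 and did not pass (adjusted p = 0.227 in limma).

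**Figure D4:**
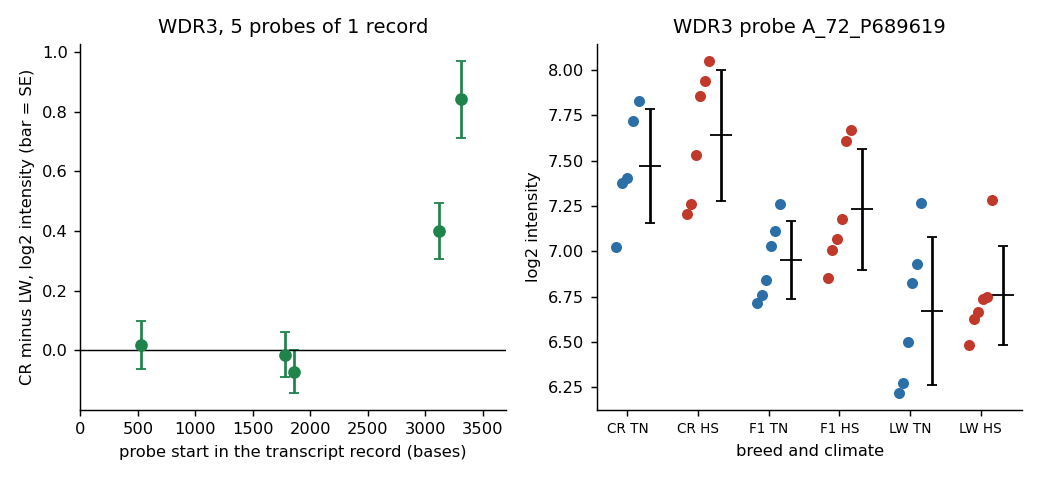
Left, CR minus LW difference in log2 intensity (vertical axis, bar = SE) of the 5 WDR3 probes with a position in 1 transcript record, against their start in that record in bases (the identical pair at 1816 is drawn slightly apart). Right, log2 intensity of the probe at 3313 in each pig with mean ± SD, blue for TN and red for HS. The probe at 3313 lies at 0.84, the probe at 3119, mostly at background in LW pigs, at 0.40, and the others close to 0.

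NCL probe A_72_P310249 ran from 6.59 to 8.89 in CR pigs (median 7.86), from 6.89 to 9.81 in F1 pigs (median 8.69) and from 7.36 to 9.75 in LW pigs (median 9.29). All 11 CR pigs were under the LW median. The CR minus LW difference was -1.26 ± 0.29 with an adjusted p of 0.0205 in limma. It was -1.40 in TN pigs, where CR and LW did not overlap, and -1.14 in HS pigs, where they did. It was negative on all 5 slides, although slide 5 set CR HS against LW TN pigs only. The array files describe this probe by an accession alone and probe O14359 as nucleolin. On O14359 the CR minus LW difference was -0.15 ± 0.10 (adjusted p = 0.687 in limma).

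No member probe passed in F1 minus CR, where 0.184% of all probes did, in F1 minus LW, where 0.0256% did, or in F1 minus mid-parent, where 0.0717% did. Unadjusted p-values under 0.05 numbered 5, 8 and 1. For NOP14, limma gave a CR minus LW difference of -0.31 ± 0.21 (adjusted p = 0.702), an F1 minus CR difference of 0.50 ± 0.21 (adjusted p = 0.850) and an F1 minus mid-parent difference of 0.34 ± 0.18 (adjusted p = 0.999). In simulated data with independent probes and pigs, a CR minus LW change of 0.5 in log2 was given to 200 of 39072 probes. Of these changed probes 51.5% were recovered. The F1 contrasts were not simulated.

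Among pigs of the same group, the members that followed NOP14 most closely came from several assembly steps. Likeness was Pearson's r over 35 pigs after removal of the 6 group means, and is a description, since all points share the same arrays. FTSJ3, a large subunit factor, had r = 0.57, followed by NOB1 (0.52), NOL11 (0.48), TSR1 (0.48) and IMP3 (0.45). The median over the other 44 members was 0.21, against 0.03 over all other probes of the table. It was 0.12 against 0.03 with slide removed as well, and 0.08 against 0.02 without CR HS replicate 1. With all pigs, 35 of the 44 members were positive, as were 54.5% of all other probes. The top member value was exceeded by 0.461% of all other probes, but it is the highest of 44. The 5th and 95th percentiles of r over all other probes were -0.42 and 0.43. NOC4L, the binding partner of NOP14, had r = -0.02. RRP9 (-0.42), DDX52 (-0.33) and RIOK2 (-0.23) ran most against NOP14. Without CR HS replicate 1 these were -0.43, -0.25 and -0.20, and NOC4L and NOP56 (both -0.23) lay below RIOK2. The highest were then FTSJ3 (0.50), TSR1 (0.42), NOB1 (0.42), NOL11 (0.38) and LTV1 (0.37), with IMP3 at 0.33. Over all pairs of members the median r was 0.20 and the highest 0.89, between NOL11 and NPM1, and 20 members had a higher median r with the others than NOP14.

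Where a gene had several probes, identical sequences read nearly the same and some different sequences did not. There were 5 pairs of identical probes, in DDX21, DKC1, NOP58, PES1 and WDR3. Their heat differences were within 0.04 of each other and their CR minus LW differences within 0.06, and the SD over pigs of the difference within a pair was 0.0964 to 0.186. By contrast, 20 genes had more than 1 distinct sequence. NCL and RIOK2 are examples with heat differences of opposite sign, although 1 probe of each lay close to 0 for its SE. UTP3 is an example whose probes read alike. How many of the 20 genes had probes that disagreed was not counted. For 23 genes, NOP14 included, a single probe was the whole measurement.

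Ribosome biogenesis genes outside the members were measured for 72 of 104 listed genes. In HS, 31 were up-regulated, where 20.1% of all probes were, and 4 down-regulated, where 14.7% were. Differences were positive for 60 of 72 genes, as for 59.8% of all probes, and their median was 0.15. Over all probes, heat calls numbered 0 without F1 pigs and 3 with the erythroid mean as a covariate. The largest rise was in PPAN, a large subunit factor, 0.47 ± 0.11 (adjusted p = 0.00292 in limma), followed by WBSCR22, a methyltransferase of the small subunit RNA, with 0.44 ± 0.09. RIOK3, a kinase related to RIOK1 and RIOK2, fell by 1.27, DDX27 by 0.71, TEX10 by 0.60 and NIP7 by 0.37 on the log2 scale, with adjusted p from 0.00159 to 0.00521 in limma. MYC, a transcription factor that drives many of these genes, had 0.12 ± 0.13 and did not pass (adjusted p = 0.454 in limma).

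Among the blood cell markers, the erythroid ones had the largest median difference between climates. Of 22 listed erythroid markers 15 were in the table, of which 8 were down-regulated, where 14.7% of all probes were, and 1 up-regulated, where 20.1% were, with a median of -0.72. Their mean log2 intensity ran from 9.72 to 11.9 in TN and from 8.83 to 10.8 in HS pigs. Neutrophil markers (10 of 14 measured) all had negative differences with a median of -0.34, none past the threshold. Platelet markers (5 of 8) all had positive ones with a median of 0.24, also none past it. B cell markers (5 of 8) were all positive with a median of 0.28 and 2 up-regulated, and T cell markers (11 of 13) were positive in 10 with a median of 0.19 and 3 up-regulated. Monocyte markers (6 of 8) had a median of -0.01 with 1 up-regulated. Over all probes 20.1% were up-regulated and 59.8% had a positive difference. The lists other than the erythroid one are short, so nothing is read from their counts. The part of these cell types in the members' differences was not tested, beyond the erythroid covariate below. The mean over the 45 members went from 8.12 ± 0.06 (SD, n = 6) in F1 TN to 8.41 ± 0.09 (SD, n = 6) in F1 HS pigs, from 8.26 ± 0.10 (n = 5) to 8.36 ± 0.21 (n = 6) in CR pigs and from 8.27 ± 0.07 to 8.38 ± 0.12 (n = 6 each) in LW pigs. CR HS replicate 1 stood apart at 7.96 (other CR HS pigs 8.29 to 8.53), and without it the CR HS mean was 8.44 and the CR difference 0.18 instead of 0.10. With the erythroid mean as a covariate the NOP14 difference was 0.76 ± 0.20, and up-regulated member probes numbered 0 instead of 38, where over all probes 3 passed instead of 13601. Differences were then positive for 38 of the 45 members, with a median of 0.12 instead of 0.18. Without F1 pigs the NOP14 difference was 0.75 ± 0.24, and 0 member probes and 0 of all probes passed in limma (6845 with an unadjusted p under 0.05).

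**Figure D5:**
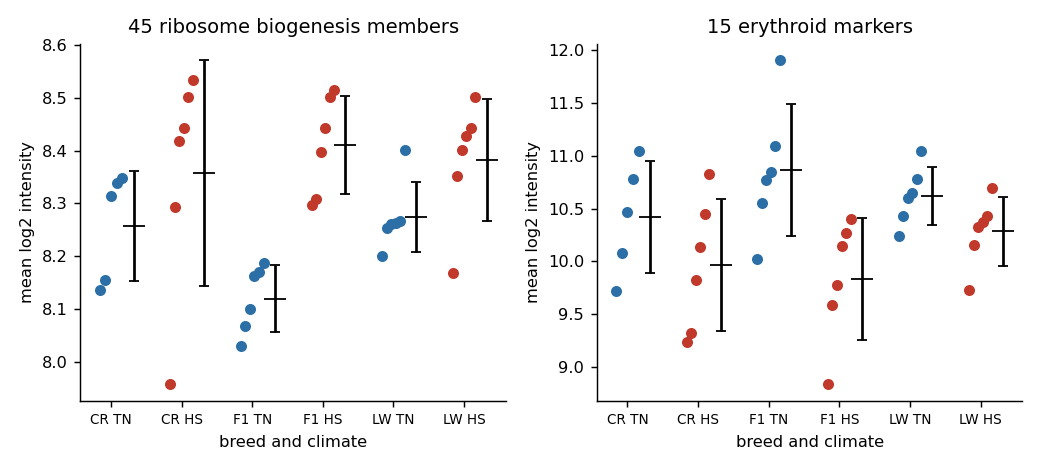
Mean log2 intensity of the 45 members (left) and of 15 erythroid markers (right) in each pig by genetic type and climate, with mean ± SD beside the points, blue for TN and red for HS. The group average of the members is lowest in F1 TN (8.12), although 1 CR HS pig lies lower still at 7.96, and erythroid means run lower in HS (8.83 to 10.8) than in TN pigs (9.72 to 11.9), with overlap.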

How the data were processed

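Whole blood RNA of 35 pigs was hybridised to single-colour Agilent arrays, and per the file headers Feature Extraction 10.10.1.1 read the intensity of each spot. The authors deposited a table of log2 values of 39072 probes, quantile normalised. The rule by which its probes were kept is not given in the sources used here. Recomputed scanner medians correlated with it at r = 1.00 (largest difference 0.32).

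limma 3.58.1 in R 4.3.3 was fitted to all probes of the table with breed and climate as additive terms, and with 6 group means for within-breed and interaction contrasts. Benjamini-Hochberg adjustment ran over all 39072 probes at 0.05. The random effects of pen, slaughter day and parents in the study's model are not in the labels and were left out. The fit therefore treats the pigs as independent, and its SEs and p-values may be too small. Here 7842 probes were called higher and 5759 lower in HS minus TN. The paper's model, which kept these effects, reports far fewer differentially expressed probes in blood. Replicates are separate pigs, numbered in accession order.

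Named members were NOP14, the 3 highest and 2 lowest heat differences in each of 5 assembly steps, members called in a breed or interaction contrast, the 5 most and 3 least like NOP14, and members with probes called in opposite directions. NOC4L's likeness, the pair with NPM1 and genes outside the members were named after their values were seen. Members, lists and tests were chosen with earlier results of these data known. Symbols are those of the array design. The fit was tested on simulated data, with 72.5% of changes of 0.5 recovered for HS minus TN. There 200 of 39072 probes were changed, far fewer than were called here, so this share does not carry over to these data. Alternatives were other background corrections, scalings and filters, slide as a block, array weights, an erythroid covariate, omission of F1, gene means and leaving out each array. The member mean without CR HS replicate 1 and the likeness of all probes with slide removed were added after seeing the data. Precision is limited by the number of arrays.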

Additional observations from a re-analysis of the deposited data

Results flagged for a closer look

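In 13 of 186 groups examined (31 probes of the named members), 1 pig stood further from the rest of its group than Dixon's 95% limit allows, where chance gives about 5% of groups. NOP14 in F1 TN replicate 5 was high at 10.99 (others 10.04 to 10.32). F1 HS replicate 4 was high for DDX21 at 10.51 (others 9.96 to 10.15) and low for FBL at 12.91 (others 13.27 to 13.40), NOP10 at 5.59 (others 6.04 to 6.22) and UTP18 at 7.10 (others 7.76 to 8.12).

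CR HS replicate 1 was low for FTSJ3 at 8.51 (others 8.98 to 9.24), IMP3 at 8.53 (others 9.21 to 9.55), NOL11 at 6.85 (others 7.68 to 8.02) and NOLC1 at 6.63 (others 7.18 to 7.41). LW HS replicate 1 was low for NCL probe A_72_P310249 at 7.36 (others 9.05 to 9.75) and for NOP58 at 11.33 (others 11.69 to 11.88). NOP56 was low in LW TN replicate 3 at 11.46 (others 12.19 to 12.42), and WDR3 probe A_72_P689619 was high in LW HS replicate 5 at 7.28 (others 6.48 to 6.75).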

How the results depend on the processing

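No paired analysis was possible because the replicate numbers follow accession order and link no pigs across groups. Up-regulated member probes in HS minus TN (38) numbered 0 with the erythroid covariate, 0 without F1 pigs and 23 genes with gene means, and the down-regulated one became 2 with array weights and 0 with each of the covariate, no F1 pigs and gene means. Within F1, the counts of 35 and 2 became 3 and 0 with the covariate, 23 and 1 with gene means, and 1 down-regulated with array weights. Array weights gave 2 calls within CR instead of 0, 1 in F1 minus CR instead of 0 and 6 in CR minus LW instead of 3. CR minus LW became 5 without F1 pigs and 1 with gene means. None of the named members' differences that passed the threshold changed sign under these alternatives. The causes were not tested. Shares over all probes are not given here for these counts or for those without 1 pig, so nothing about the members is read from them.

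Leaving out each pig in turn gave 35 to 46 up-regulated and 1 to 2 down-regulated member probes in HS minus TN, 29 to 38 and 1 to 2 within F1, 3 to 4 in CR minus LW, and 0 to 0 within CR, within LW, in F1 minus CR, F1 minus LW, F1 minus mid-parent and the interaction. The likeness median ran from 0.08 to 0.27 and was 0.12 with slide as a block. The CR minus LW difference kept its side of the threshold in all 35 such fits for WDR3 A_72_P689619 (0.80 to 0.90), WDR3 A_72_P245437 (0.36 to 0.45, with LW pigs mostly at background) and NCL A_72_P310249 (-1.42 to -1.14). With gene means NCL had -0.70 and passed. Dim probes limit the WDR3 result, and 19 of the 86 member probes were not well above background on every array.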
